A study of Homo sapiens with 4 samples.

Results

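The Notch pathway was examined through 10 genes, found by their symbols in the deposited table: the receptors NOTCH1, NOTCH2 and NOTCH3, the ligands JAG1, JAG2 and DLL1, and the target genes HES1, HES4, HEY1 and HEY2. All 10 were found, each once, among the 61806 genes of the table. The RNA came from JJ012, a human chondrosarcoma cell line, and 143B, a human osteosarcoma cell line, both kept in suspension so that they could not attach. For each line there was 1 library from untreated cells, called control, and 1 library from cells given 1 mM melatonin for 72 h, so that 4 libraries were compared and no condition had a replicate. Whether the untreated cells received a vehicle is not given in the sources used here.

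Notch is a signal between touching cells. A ligand of the Jagged or Delta family on one cell binds a NOTCH receptor on its neighbour, the receptor is cut by an ADAM protease and then by gamma-secretase, and the freed intracellular domain enters the nucleus, where it joins the DNA-binding protein RBPJ and a Mastermind coactivator. The best known targets are the HES and HEY genes, which encode basic helix-loop-helix repressors. In the skeleton the pathway is known for restraining the differentiation of osteoblasts and chondrocytes.

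RBPJ is known to bind DNA with letters such as GTGGGAA, so the stretches before the start sites of the target genes are shown first. RefSeq promoter windows (GRCh38.p14, from 250 bases before to 50 bases after a start) were matched for 8 of the 10 genes, without DLL1 and HEY1. Capitals mark GTGGGAA or a second letter string known for RBPJ sites, GTGTGAA, on either strand, where they read TTCCCAC and TTCACAC. The first sequence is 240 bases before the HES1 start at chr3:194135898-194136137 (plus strand). The next is the stretch with both strings before the HES4 start at chr1:1000145-1000174 (minus strand), which overlaps the first exon of a longer GENCODE transcript of HES4. The last ones lie around the matches of HEY2 at chr6:125749408-125749437 and chr6:125749617-125749646 (plus strand). Both lie inside the HEY2 gene as counted (chr6:125747664-125761269), so their labels refer to the RefSeq start.
HES1: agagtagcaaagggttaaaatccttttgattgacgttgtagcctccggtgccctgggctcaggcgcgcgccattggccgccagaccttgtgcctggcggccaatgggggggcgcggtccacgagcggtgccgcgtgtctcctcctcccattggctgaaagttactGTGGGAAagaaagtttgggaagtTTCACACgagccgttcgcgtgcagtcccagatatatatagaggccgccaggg
HES4: GTGGGAAagaatgcggagccgggTTCACAC
HEY2, upstream match: ccgcggccgcgTTCCCACgcctcggctgga
HEY2, match at the start: agagttgcggcGTGGGAAagagccgctagg
In HES1 and in HES4 the strings face each other with 16 bases between them, and this spacing was read from these sequences before it was searched elsewhere. GTGGGAA was held by 6.25% of 35116 promoter windows, GTGTGAA by 3% and both by 0.262%. The facing pair with 16 bases between was held by 2 windows (0.0057%), those of HES1 and HES4. The windows of NOTCH1, NOTCH2, NOTCH3, JAG1 and JAG2 held neither string. A match describes the letters in the window and is not evidence of binding.

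The libraries held between 15889564 and 19218343 counts. Levels are given as FPKM, the counts per kilobase of exonic length, scaled to the library total, as deposited by the authors. Of the defining chondrocyte markers, COL2A1 had 0 counts in both JJ012 libraries and ACAN had 4 counts in the JJ012 control. SOX9 was at 15.06 FPKM in the JJ012 control and at 15.48 FPKM in the 143B control. In 143B, the osteoblast marker IBSP had 0 counts in both libraries and SP7 had at most 1 count. RUNX2 was at 4.28 FPKM in the 143B control and at 3.02 FPKM in the JJ012 control. SPP1 and COL1A1 were at 79.39 and 10.92 FPKM in the JJ012 control, and at 0.4 and 0.49 FPKM in the 143B control. The summed FPKM of the 7 listed osteoblast markers was 94.74 in the JJ012 control and 6.97 in the 143B control. For the 7 chondrocyte markers it was 17.69 and 16.77. Endothelial cells use Notch heavily, and of their 7 listed markers CDH5 and TEK had 0 counts in both 143B libraries, while TIE1 was at 18.11 FPKM in the 143B control. The summed FPKM of these 7 markers was 4.21 in the JJ012 control, 1.68 in melatonin-treated JJ012, 21.69 in the 143B control and 19.57 in melatonin-treated 143B. Their part in the results was not tested.

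To learn which Notch genes each line used, the levels of the untreated cells were set side by side. NOTCH3, DLL1 and HES1 were present in 143B and close to absent in JJ012, while HES4 and HEY1 were higher in JJ012. NOTCH2 was the most abundant receptor in both lines, at almost the same level in the FPKM as deposited. In RNA from a whole culture, fewer cells using a gene and less RNA per cell cannot be told apart.

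The receptor genes lie, by the hg38 coordinates of the table, at chr9:136494433-136546048 (NOTCH1), chr1:119911553-120100779 (NOTCH2) and chr19:15159038-15200995 (NOTCH3), all on the minus strand. NOTCH2 had 18.33 FPKM in the JJ012 control, 46.09 FPKM in melatonin-treated JJ012, 18.62 FPKM in the 143B control and 18.32 FPKM in melatonin-treated 143B. The melatonin-treated JJ012 library stood above the others, which lay close together. NOTCH1 had 2.12 and 4.74 FPKM in JJ012, control then melatonin, and 3.60 and 4.83 FPKM in 143B. The JJ012 control was the lowest library for this gene. NOTCH3, a receptor best known from smooth muscle of vessels, had 0.02 and 0.03 FPKM in JJ012 (4 counts in each library) and 4.99 and 5.13 FPKM in 143B (746 and 829 counts). The lines did not overlap for NOTCH3, and its JJ012 level rests on 4 counts per library.

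The ligand genes are also on the minus strand, at chr20:10637684-10673999 (JAG1), chr14:105140982-105168824 (JAG2) and chr6:170282206-170306565 (DLL1). JAG1 had 2.89 and 4.47 FPKM in JJ012 and 3.61 and 5.63 FPKM in 143B, so that the melatonin library was the higher one in each line. JAG2 had 2.99 and 2.72 FPKM in JJ012 and 6.81 and 5.60 FPKM in 143B, and both 143B libraries lay above both JJ012 libraries. DLL1 had 0.15 and 0.05 FPKM in JJ012 (11 and 3 counts) and 12.38 and 12.86 FPKM in 143B (751 and 843 counts). DLL1 was the most abundant of the 3 ligands in 143B and the least abundant in JJ012. It overlaps FAM120B on the opposite strand, which had between 379 and 1561 counts per library, and as the strand setting of the counting is not given in the sources used here, reads of the overlap could not be assigned with certainty. FAM120B was higher in JJ012, where DLL1 was low.

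Of the target genes, HES1 (chr3:194136148-194138732) and HEY2 (chr6:125747664-125761269) are on the plus strand, and HES4 (chr1:998962-1000172) and HEY1 (chr8:79762371-79767857) on the minus strand. HES1, the classical Notch target, had 0.30 and 1.05 FPKM in JJ012 (12 and 35 counts) and 46.15 and 42.53 FPKM in 143B (1510 and 1503 counts). HES4, a relative of HES1 that rodents such as the mouse lack, had 33.09 and 47.98 FPKM in JJ012 and 10.86 and 9.54 FPKM in 143B. The order of the lines was therefore opposite for these genes, which carry the same facing pair of strings shown above. HEY1 had 6.83 and 9.48 FPKM in JJ012 and 1.98 and 1.44 FPKM in 143B, and was thus also higher in both JJ012 libraries. HEY2 was low throughout, with 1.20 and 1.45 FPKM in JJ012 and 0.70 and 0.80 FPKM in 143B.

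**Figure D1:**
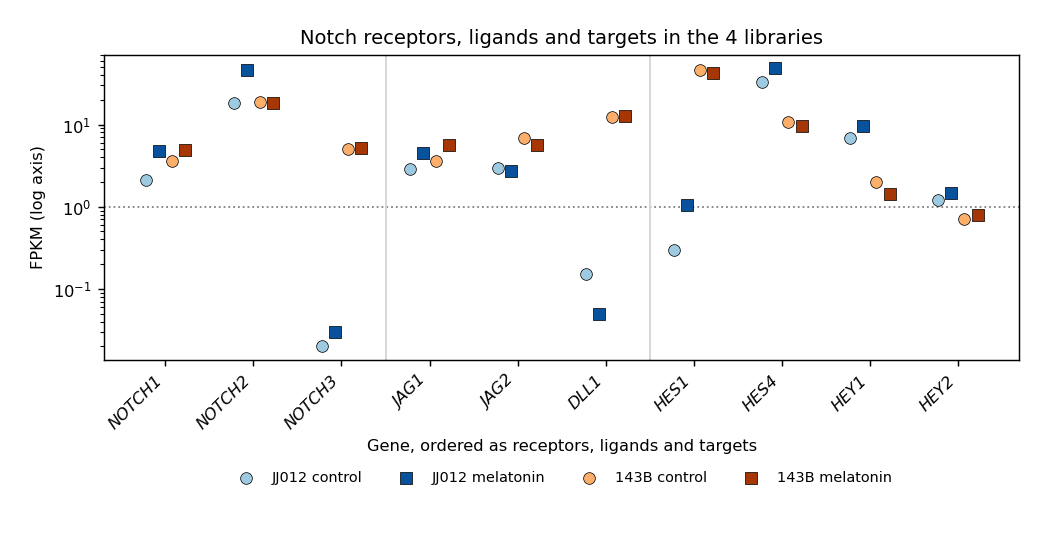
FPKM of the 10 genes (vertical log axis) in the 4 libraries, 1 point per library, with receptors, ligands and targets separated by grey lines and 1 FPKM dotted. NOTCH3, DLL1 and HES1 lie far lower in JJ012 than in 143B, HES4 and HEY1 lie higher in JJ012, and NOTCH2 stands out in the melatonin-treated JJ012 library at 46.09 FPKM.

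Within the JJ012 control the order by FPKM was HES4, NOTCH2, HEY1, JAG2, JAG1, NOTCH1, HEY2, HES1, DLL1 and NOTCH3. Only the neighbours JAG2 and JAG1, and HES1 and DLL1, had exact 95% counting intervals that overlapped. In the 143B control the order was HES1, NOTCH2, DLL1, HES4, JAG2, NOTCH3, JAG1, NOTCH1, HEY1 and HEY2, with overlap between DLL1 and HES4 and between JAG1 and NOTCH1. After melatonin, HES4 and NOTCH2 overlapped at the head of the order in JJ012, and in 143B the neighbours among JAG1, JAG2, NOTCH3 and NOTCH1 overlapped.

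Differences between libraries were expressed as the log2 ratio of FPKM after adding 1 FPKM to each value, which understates the change of low genes. Genes with at least 1 FPKM in either library were compared, and an absolute value of at least 0.58, the fold threshold of the study, was counted. Beside it stands the ratio of CPM, the counts scaled to the library total without regard to length, with an exact 95% interval. Such intervals cover counting error only, and with 1 library per condition no test within a line was run.

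For the untreated lines, all 10 genes were compared and 6 were past the threshold, 4 higher and 2 lower in 143B, against 68.7% of all 16929 genes compared, 27.4% of them higher and 41.3% lower, so that the count of the Notch genes was near that of the table as a whole. 4 of the genes (NOTCH3, DLL1, HES1 and HEY2) passed the filter through 1 library alone. HES1 was 152-fold higher in the 143B control by CPM (95% interval 86.9 to 295), with a log2 fold change of 5.18 that exceeded those of 99.8% of the genes compared. NOTCH3 was 226-fold higher in 143B (87.7 to 830), from 4 counts in JJ012, with a log2 fold change of 2.55. DLL1 was 82.6-fold higher (45.9 to 166), with a log2 fold change of 3.54. JAG2 was 2.27-fold higher in 143B (2.00 to 2.59).
In the opposite direction, HES4 was 3.05-fold lower in 143B than in JJ012 (2.59 to 3.59) and HEY1 was 3.44-fold lower (2.91 to 4.09). NOTCH1 and JAG1 had CPM ratios of 1.70 (1.51 to 1.91) and 1.25 (1.11 to 1.42) and were under the threshold by FPKM. NOTCH1 was past it with a smaller pseudocount, TPM, CPM with or without TMM factors and centring. JAG1 was past it with TPM and TMM factors, and HEY2 with the smaller pseudocount and CPM. Up to 8 of the 10 genes were thus counted. In the settings that counted 8, between 73.4% (TPM) and 75.9% (CPM) of all genes compared were past the threshold. The CPM ratio of NOTCH2 was 1.02, with an interval of 0.978 to 1.06. Its log2 fold change, 0.02, was 0.40 with TPM, 0.37 with TMM factors and 0.31 centred on the median gene. With the length correction below it was -0.26. HEY2 had a log2 fold change of -0.37. Of all genes past the threshold, 39.9% were higher in 143B, and 50.7% were with TPM, in which each library sums to the same total. The median gene moved from -0.29 with the FPKM as deposited to 0.01 with TPM. The signs of NOTCH2 and HEY2 between the lines depended on the scaling or on the length correction below, and those of the other 8 genes did not.

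The receptors and ligands also made up different mixtures in each library, a comparison that does not depend on how libraries are scaled to each other. Of the summed FPKM of NOTCH1 to NOTCH4, NOTCH2 held 77.0% in the JJ012 control, 88.0% in melatonin-treated JJ012, 68.2% in the 143B control and 64.7% in melatonin-treated 143B. NOTCH3 held 18.3% and 18.1% in 143B. NOTCH4, best known from endothelial cells, held 13.96% of the summed FPKM in untreated JJ012 and 2.88% in the treated cells, and less than NOTCH3 in both 143B libraries.
Among the ligands, DLL3, an atypical Delta ligand regarded as an inhibitor of Notch in the same cell, held 58.8% in untreated JJ012 and 50.3% in the treated cells, and 32.8% and 24.5% of the summed ligand counts, in which length is not divided out. By counts JAG1 led in JJ012, with 38.3% and 52.9%. In 143B, DLL1 held 52.7% and 51.0% of the summed FPKM. By counts DLL1 held 37.4% in the 143B control and 34.9% after melatonin, and JAG1 held 26.6% and 37.2%. HES4 held 79.89% and 80.02% of the summed FPKM of the 4 target genes in JJ012, and HES1 held 77.3% and 78.3% in 143B. By FPKM each line thus had its own leading target gene. By counts, HES4 and HEY1 held nearly equal shares in the JJ012 control, 47.2% and 47.8%.

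**Figure D2:**
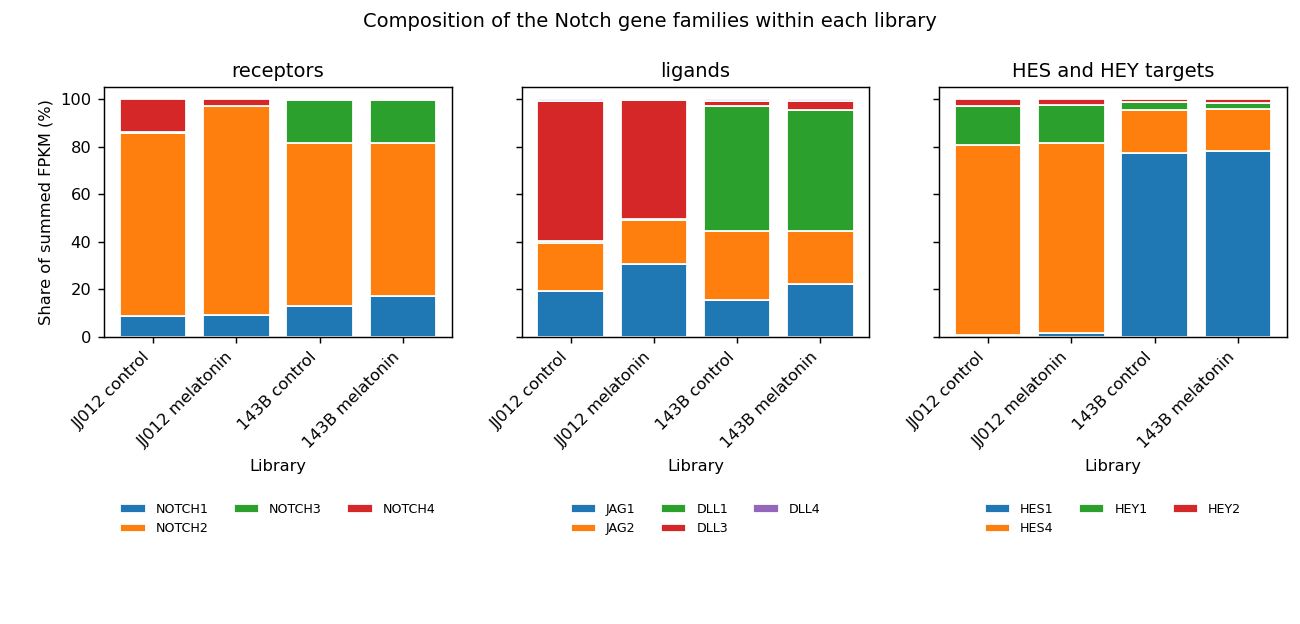
Share of the summed FPKM (vertical axis, percent) held by each gene within the receptors, ligands and HES and HEY targets, 1 stacked bar per library. NOTCH2 leads the receptors in all libraries, DLL3 the ligands in JJ012 and DLL1 in 143B, HES4 the targets in JJ012 and HES1 in 143B.

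The next comparison asked how melatonin was followed by changes in Notch genes in JJ012. Of the 8 genes compared, 3 were past the threshold and higher after melatonin (NOTCH1, NOTCH2 and HES1) and 0 were lower, against 38.2% of all 15794 genes compared, 19.6% of them higher and 18.6% lower. The share of the Notch genes was thus near that of the table. DLL1 and NOTCH3, below 1 FPKM in both JJ012 libraries, were not compared. HES1 passed the filter only through the melatonin library, where it stood just over it at 1.05 FPKM.
NOTCH2 showed the largest log2 fold change of the 8, 1.28, which exceeded those of 96.6% of the genes compared. By CPM it was 2.51-fold higher (2.44 to 2.59), from 5899 and 12459 counts. NOTCH1 had a log2 fold change of 0.88 and was 2.24-fold higher (2.01 to 2.49), from 510 and 958 counts. HES1 had a log2 fold change of 0.66 and was 3.47-fold higher (1.76 to 7.35), although with 35 counts it remained far below its level in 143B. A further 3 genes, under the threshold by FPKM, had CPM ratios with intervals above 1: JAG1 at 1.55-fold (1.38 to 1.74), HES4 at 1.45-fold (1.31 to 1.60) and HEY1 at 1.39-fold (1.26 to 1.54). For JAG1 the log2 ratio of CPM alone, 0.63, was past the threshold. JAG2 had a CPM ratio of 0.909 (0.775 to 1.06) and HEY2 of 1.21 (0.838 to 1.75), so that their differences lay within counting error.

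In 143B, 0 of the 9 genes compared were past the threshold, against 12.7% of all 14135 genes compared, 6.09% higher and 6.65% lower. HEY2 was below 1 FPKM in both libraries. JAG1 came nearest, with a log2 fold change of 0.52 and a CPM ratio of 1.56 (1.40 to 1.74), and it was past the threshold when the ratio was taken from CPM alone (0.64). NOTCH1 was 1.34-fold higher (1.22 to 1.48). Lower values with intervals below 1 were those of HEY1, at a ratio of 0.728 (0.577 to 0.916), JAG2, at 0.823 (0.737 to 0.918), and HES1, at 0.921 (0.857 to 0.990). NOTCH2 (0.984, 0.946 to 1.02), NOTCH3 (1.03, 0.931 to 1.14), DLL1 (1.04, 0.941 to 1.15) and HES4 (0.878, 0.713 to 1.08) differed by no more than their counting error, and the signs of NOTCH3, DLL1 and HEY2 turned with the scaling or the length correction.
JAG1 and NOTCH1 were the genes of the 10 whose CPM ratio lay above 1 with its whole interval in both lines. The log2 ratio of JAG1 was 0.84 in JJ012 and 0.56 in 143B with TPM, and 0.23 and 0.51 less the running median over length described below. Set against JAG2 in the same library, which removes the scaling between libraries, the ratio of JAG1 to JAG2 counts was 1.70-fold higher after melatonin in JJ012 (1.40 to 2.08) and 1.89-fold higher in 143B (1.62 to 2.21). The ratio of NOTCH2 to NOTCH1 counts was 1.12-fold higher in JJ012 (1.00 to 1.26) and lower in 143B, at 0.733 of the control (0.660 to 0.813). The ratio of HEY1 to HES4 counts was 0.958 of the control in JJ012 (0.830 to 1.11) and 0.829 in 143B (0.606 to 1.13).
A fit over all 4 libraries with terms for cell line and melatonin, which leaves 1 residual degree of freedom, asked for a change shared by both lines. By edgeR's quasi-likelihood test with Benjamini-Hochberg adjustment, 0 of the 10 genes were called at an adjusted p under 0.05, against 0.453% of 18107 genes, and by limma 0 were called against 0.00552%. At an unadjusted p under 0.05, edgeR called 1 of the 10 (NOTCH1, log2 fold change 0.77, adjusted p = 0.84), against 1034 of the 18107 genes. By limma 0 of the 10 were called at that level, against 949 of the 18107 genes. The lines serve as replicates in this fit, so a change in 1 line alone counts as spread.

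**Figure D3:**
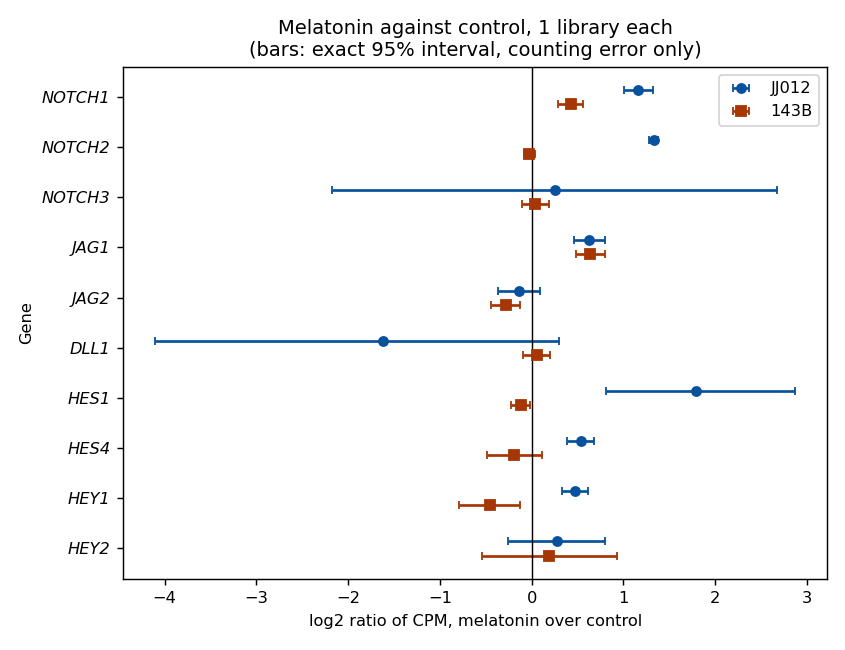
log2 ratio of CPM, melatonin over control (horizontal axis), for the 10 genes in JJ012 (circles) and 143B (squares), with exact 95% intervals that cover counting error only. JAG1 sits at 0.63 in JJ012 and 0.64 in 143B, NOTCH2 lies at 1.33 in JJ012 and -0.02 in 143B, and the intervals of NOTCH3 and DLL1 in JJ012 are wide because they rest on 11 counts or fewer.

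Gene length moved with the log2 fold change in JJ012. The running median over genes of like exonic length was 0.34 at the length of NOTCH1 (12531 bases), 0.34 at that of NOTCH2 (16744 bases), -0.37 at that of HES1 (2059 bases) and -0.35 at that of HES4 (1118 bases). Among the 2301 compared genes with at least 9000 exonic bases, the median was 0.33 and 719 were past the threshold and higher. Less the running median, NOTCH2 kept 0.94 and HES1 had 1.02, NOTCH1 had 0.54, no longer past the threshold, and HES4 had 0.88, now past it. In 143B, the running medians at the lengths of the 10 genes lay between -0.02 and 0.08. What the trend with length comes from was not tested.
With TPM the median gene of JJ012 moved from 0.01 to 0.27, and the share of all genes past the threshold that were higher after melatonin went from 51.4% to 68.8%. Past the threshold were 6 of the 8 Notch genes, against 50.3% of all genes compared. The FPKM summed to 280482 (JJ012 control) and 231739 (JJ012 melatonin), less than the TPM total. Adding 1 TPM was thus a smaller addition than 1 FPKM, and its part in these counts was not tested. Relative to the shift of the median gene, HEY1, HES4 and JAG1 were 0.46, 0.54 and 0.57 above that gene, under the threshold. NOTCH1, NOTCH2 and HES1 stayed past it. The sign of JAG2 in JJ012 turned with TPM.

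**Figure D4:**
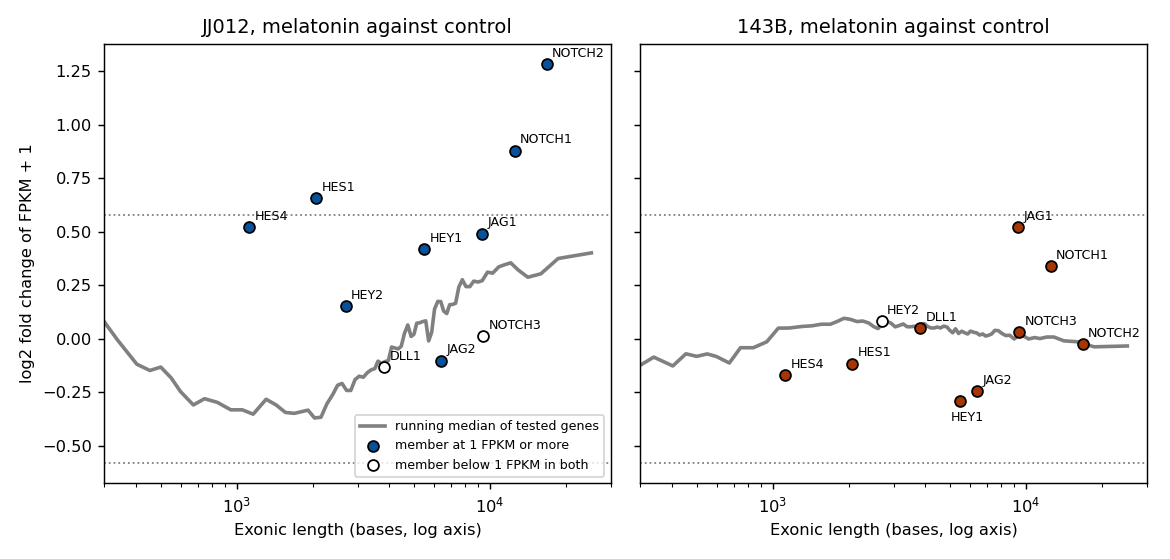
log2 fold change of FPKM + 1 (vertical axis) against exonic length in bases (horizontal log axis) for the 10 genes in each line. The grey line is the running median of all genes compared, the dotted lines mark 0.58 in each direction, and open points are genes below 1 FPKM in both libraries; NOTCH1 and NOTCH2 lie at lengths where the grey line of JJ012 is near 0.34.

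Some reads of NOTCH2 may belong to NOTCH2NL genes, partial copies of its first exons on chromosome 1 that are nearly identical to it. The 4 NOTCH2NL genes of the table had 165 counts together in the JJ012 control, 471 in melatonin-treated JJ012, 579 in the 143B control and 583 in melatonin-treated 143B. These sums were between 2.80% and 11.7% of the NOTCH2 counts of the library. NOTCH2NLA alone had 45 and 210 counts in JJ012, and was 5.56-fold higher after melatonin (4.01 to 7.85). The NOTCH2NL counts were thus also higher in melatonin-treated JJ012, and how reads were divided among these copies is not given in the sources used here.

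The rest of the pathway was described through 7 written lists. Counts of list genes in JJ012 stand against 19.6% of all genes higher and 18.6% lower. Of 10 other receptors and ligands, 5 were compared, 0 were higher and 4 were lower, with a median log2 fold change of -0.84, against 0.01 over all genes. The receptor NOTCH4 had 3.32 and 1.51 FPKM in JJ012, 2.205-fold lower by CPM (1.895 to 2.57), opposite to NOTCH1 and NOTCH2. In the same library the ratio of NOTCH2 to NOTCH4 counts was 5.54-fold higher (4.75 to 6.49). In 143B NOTCH4 had 13 and 8 counts. DNER, a transmembrane protein described as a Notch ligand, was 7.79-fold lower in melatonin-treated JJ012 (5.70 to 10.9). DLK2, a membrane protein described as a noncanonical inhibitor, was 2.37-fold lower (1.70 to 3.35). EGFL7, a secreted factor of endothelial cells that binds Notch receptors, was 3.10-fold lower (2.70 to 3.57). The summed FPKM of the markers of each of the 6 listed cell types was also lower in that library, for example 630.07 and 228.61 for mesenchymal and 15.08 and 6.45 for blood markers, and the part of this was not tested. DLL3 had 8.78 and 7.36 FPKM in JJ012 and 0.53 and 0.89 FPKM in 143B, with log2 fold changes of -0.23 and 0.30. DLL4 had 19 counts or fewer in every library.

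The enzymes that modify and cut the receptors were next. In JJ012, 2 of the 8 compared glycosylation genes were lower and 0 higher, with a median of -0.18. LFNG, or Lunatic fringe, which tunes the response of the receptor to Jagged or Delta, had 203 and 72 counts and was 2.37-fold lower (1.80 to 3.14), and the xylosyltransferase GXYLT2 had 8 and 3.08 FPKM. Of the 7 compared proteases, the receptor convertase FURIN was 2.35-fold lower (2.23 to 2.47), the gamma-secretase subunit PSENEN was 1.897-fold lower (1.74 to 2.07), and ADAM17 was 1.74-fold higher (1.64 to 1.84). The median of this list was -0.26. ADAM10, the main protease of ligand-activated receptors, had 11.15 and 11.55 FPKM.
Ubiquitin and endocytosis genes had 4 of 16 higher and 3 lower, with a median of 0.07. MIB1, the ubiquitin ligase that lets ligands signal, had 7.34 and 16.29 FPKM in JJ012, and DTX3L of the Deltex family had 15.39 and 36.45 FPKM, while its relative DTX4 had 1.52 and 0.53 FPKM. EPN2 and AAK1, both of endocytosis, were also higher, with log2 fold changes of 0.92 and 0.86, and EPN1 and DTX3 were lower, with -0.63 and -0.61.

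In the nucleus, RBPJ itself had 11.18 and 10.63 FPKM in JJ012 and 29.04 and 19.51 FPKM in 143B, a log2 fold change of -0.07 and -0.55, the latter close to the threshold. By CPM it was 1.49-fold lower in melatonin-treated 143B (1.44 to 1.54). Coactivators had 3 of 8 higher and 0 lower in JJ012, with a median of 0.13. The acetyltransferases EP300 and CREBBP and the Mastermind gene MAML1 had log2 fold changes of 1.15, 0.99 and 0.67. Among corepressors, 5 of 18 were higher and 3 were lower, with a median of -0.02. SPEN, the large corepressor that binds RBPJ, had 3.64 and 10.88 FPKM in JJ012 and 27.66 and 26.15 FPKM in 143B. NCOR1 and KDM5A were also among the higher genes, and TLE5, TLE2 and RITA1, which carries RBPJ out of the nucleus, were the lower ones.
Other genes described as Notch targets had 4 of 17 higher and 5 lower in JJ012, with a median of -0.05. MYC had 2.86 and 10.20 FPKM, 3.57-fold higher (3.09 to 4.13), SNAI2 25.20 and 57.98 FPKM, and BHLHE40 80.82 and 129.19 FPKM. ID3 had 30.09 and 12.75 FPKM, SOX9 15.06 and 6.16 FPKM, and ACTA2 1.57 and 0.15 FPKM. These genes answer to many other signals as well. HEYL, the closest relative of HEY1 and HEY2 in the list, had 17 and 0 counts in JJ012 and 77 and 80 counts in 143B. HES7, the oscillator of the segmentation clock, had 32.71 and 32.69 FPKM in JJ012. Across all 7 lists, 36 of the 79 genes compared in JJ012 were past the threshold, 17 higher and 19 lower. The share was 38.2% over all genes and 33.9% over the 11534 protein-coding genes compared.

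In 143B, 3 of 80 list genes were past the threshold, against 12.7% of all genes and 6.09% of the protein-coding genes. They were EGFL7 and the acetyltransferase KAT2A, which were higher, and NEURL1, a ubiquitin ligase of ligands, which was lower. The list medians lay between -0.27, for other receptors and ligands, and 0.14, for glycosylation genes, against 0.03 over all genes. In the pathway named Notch signaling in the KEGG annotation of the table, which holds 94 genes with pseudogenes and NOTCH2-like copies among them, 12 of 51 compared genes were higher and 7 lower in JJ012, a share near the 38.2% of all genes, and in 143B 2 of 51 were higher and 0 lower, against 6.09% and 6.65% of all genes.

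**Figure D5:**
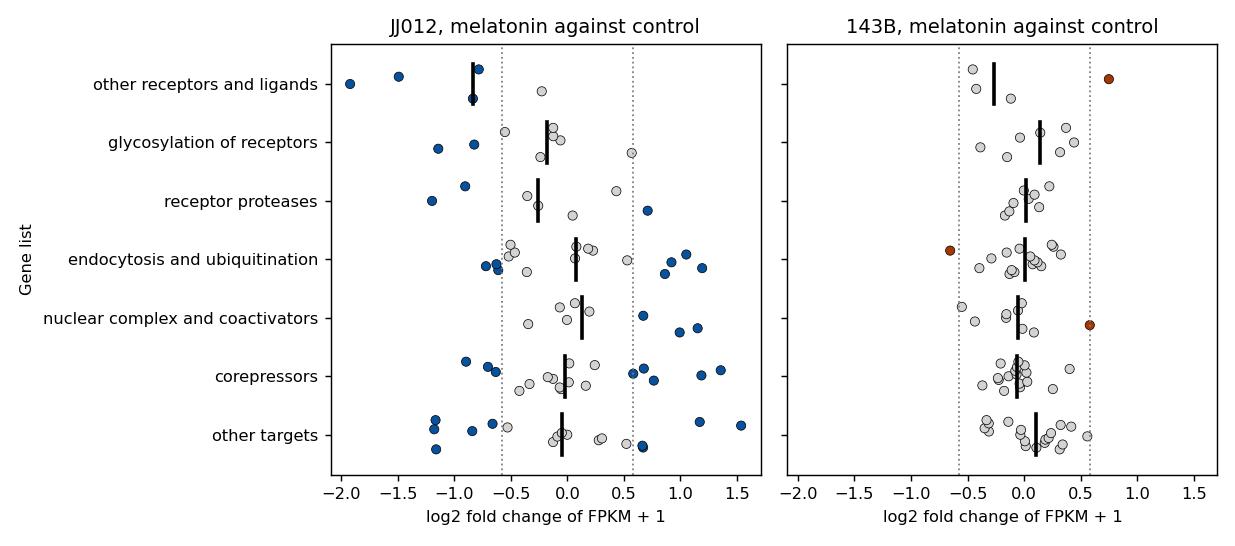
log2 fold change of FPKM + 1, melatonin against control (horizontal axis), of the compared genes in the 7 written lists, 1 point per gene, with list medians as black bars and values past 0.58 (dotted) coloured. Points past the threshold lie on both sides in JJ012, where other receptors and ligands have the lowest median (-0.84), and 3 points are past it in 143B.

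To place the pattern of single genes over the 4 libraries, the smallest distances in log2 (FPKM + 1), each gene centred on its own mean, were taken among 9740 genes at 1 FPKM or more in every library. Nearest to NOTCH2 were XPOT (distance 0.03), SCML2 and RIPK2 (0.09 each). XPOT had 23.22, 57.37, 22.93 and 23.29 FPKM in the JJ012 control, melatonin-treated JJ012, the 143B control and melatonin-treated 143B. The patterns closest to JAG1 were those of GCSH, LTO1 and EPOP, at distances of 0.08 each. For HES1, which was below 1 FPKM in a JJ012 library, PODXL, SLCO4A1 and STC2 came closest, at 0.48, 0.52 and 0.68. With 4 libraries, such likeness is a description only.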

How the data were processed

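Poly(A) RNA of 4 libraries was sequenced as paired ends. The submitters' processing notes name cutadapt 1.9.1, HISAT2 2.2.1, HTSeq 0.6.1, DESeq2 and the build hg38. The annotation release, the strand setting and the handling of reads with several positions are not given in the sources used here. Per gene, the authors deposited unnormalized counts, and FPKM made from these counts, the exonic length and the library total. The FPKM could be rebuilt from the counts to within 0.006 for 100% of the genes. The deposited columns name the cell line with or without the suffix T, which was read as melatonin-treated. Of the genes shared with GENCODE 29 (GRCh38), 89.6% had the same start or end.

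From these values the log2 ratio of FPKM + 1 was computed over genes at 1 FPKM or more in either library and called at 0.58, and the ratio of CPM was given an exact (Clopper-Pearson) 95% interval. Ratios of counts within a library were divided, melatonin by control, and given the exact interval of the conditional odds ratio. PCR copies were not separated, so intervals cover counting error only. With totals of 15889564 to 19218343 counts, the floor of 3 counts was 0.156 to 0.189 CPM. No test within a line was run, as there were no replicates. An additive fit of cell line and melatonin over the 4 libraries (genes at 1 FPKM or more in any library) was added after seeing the data, by edgeR's quasi-likelihood test on the counts and by limma on log2(FPKM + 1). The running median over exonic length used 501 genes. Alternatives were adding 0.1 FPKM, keeping every gene, keeping genes from 5 FPKM, TPM, CPM, CPM with TMM factors (edgeR 4.0.16), centring on the median gene, the length correction and a threshold of 1. The 10 genes and the 7 pathway lists were chosen with earlier results of these data known. Named genes were the 10, genes past the threshold in lists with at most 8 of them (otherwise the 3 largest rises and falls), NOTCH4, DLL3, DLL4, RBPJ, the NOTCH2NL genes, and the 3 genes nearest to NOTCH2, JAG1 and HES1. FAM120B, HEYL, HES7 and ADAM10 were named after their values were seen. The fold rule, the intervals and the edgeR fit were tested on simulated counts. These held counting error alone, or for the fit a small added spread and the same melatonin change in both lines. They cannot show how the rule and the fit behave where lines answer differently or cultures vary more. Python 3.11.15, numpy 2.4.6, scipy 1.17.1, pandas 2.3.3, matplotlib 3.10.9, limma 3.58.1 and R 4.3.3 were used.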

Additional observations from a re-analysis of the deposited data

Results flagged for a closer look

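For HES1 and HEY1 the ratios lay on opposite sides of no change in the cell lines, with intervals for counting error only. HEY1 in both lines and HES1 in 143B were under the threshold. The log2 ratio of CPM of HES1 was 1.80 in JJ012, from 12 and 35 counts, and -0.12 in 143B. For HEY1 it was 0.47 in JJ012 and -0.46 in 143B. EGFL7 was past the threshold in opposite directions, with log2 fold changes of -1.49 (JJ012) and 0.75 (143B). These differences between the lines were not tested, since each condition had 1 library.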

How the results depend on the processing

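The number of Notch genes past the threshold in JJ012, 3 of 8 as reported, was 1 of 3 with a filter of 5 FPKM. Of 8 it was 6 with TPM, 5 with CPM and TMM factors and 1 with a threshold of 1. The share of all genes past it, 38.2% as reported, was 39.7%, 50.3%, 50.4% and 14.7% in these settings, in the same order. Of the 6 with TPM, JAG1, HES4 and HEY1 fell under the threshold once the shift of the median gene was removed. The gene left with the filter of 5 FPKM and with the threshold of 1 was NOTCH2. In 143B the number was 1 of 9 (JAG1) in place of 0 with a pseudocount of 0.1 FPKM, with CPM and with CPM and TMM factors. Of all genes in 143B, 20.9%, 22.1% and 22.3% were past the threshold in these settings, in the same order. The number of list genes past the threshold was 14 of 79 in JJ012 with a threshold of 1, against 14.7% of all genes. Of 80 list genes in 143B it was 6 with a pseudocount of 0.1 FPKM, 6 with CPM and 7 with TMM factors, against the shares just given. With a threshold of 1 it was 0 in 143B, against 4.45% of all genes. The median log2 fold change of the 10 genes in JJ012, 0.46, was 0.77 with TPM. Between the control lines the median, 0.40, was 0.85 with TPM, 0.89 with TMM factors and 0.69 centred on the median gene. Taken from counts in place of FPKM, the share of NOTCH2 among the receptors was 83.9% in the JJ012 control, 91.2% in melatonin-treated JJ012, 77.1% in the 143B control and 73.7% in melatonin-treated 143B. The cause of these shifts was not tested. No called gene of the 10 changed its sign under the alternatives for scaling, pseudocount, centring and length. Paired by cell line, the additive fit (replicate block), chosen after seeing the data, called 0 of the 10 genes for melatonin by edgeR and 0 by limma. No library was left out, since each comparison within a line had 1 library per condition. Depth limits NOTCH3 and DLL1 in JJ012, with 11 counts or fewer per library, where a change with melatonin was not detectable.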

Other observations

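Between the untreated lines, 58 of the 85 list genes compared were past the threshold, 28 higher and 30 lower in 143B, a share near the 68.7% of all genes. Glycosylation genes had 0 higher and 6 of 8 lower in 143B, against 27.4% and 41.3% of all genes, with a median log2 fold change of -1.10, against -0.29 over all genes. LFNG had 203 counts in the JJ012 control and 3 counts in the 143B control, 55.9-fold lower by CPM (18.9 to 274). Among the gamma-secretase subunits, NCSTN had 39.83 FPKM in the JJ012 control and 5.51 FPKM in the 143B control, and PSENEN had 62.33 and 7.13 FPKM, while APH1B had 13 and 380 counts. MFAP2, a microfibril protein described to bind Notch ligands and receptors, had 8 and 447 counts, and DNER had 5.40 and 44.69 FPKM. RBPJ was 2.60-fold higher in 143B (2.49 to 2.71). NOTCH4 was 39.6-fold lower in 143B (22.96 to 74.7), while NOTCH3 was the higher receptor there.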
